A study of Mus musculus with 48 samples.

Results

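The interferon-stimulated genes of the mouse liver were followed in ribosome profiling and matched cytoplasmic RNA sequencing after β-catenin and MYC were activated in hepatocytes. The 40 genes were taken by symbol from a set of known interferon targets. The rule used no measured value, but the list was drawn up with earlier results of these data known. All 40 were among the 20622 genes of the RNA tables and among the 16269 genes with a line in at least 1 table of ribosome-protected fragments (RPFs). The series held 48 libraries, an RPF and a cytoplasmic RNA library from the liver of each of 24 male mice aged 2 to 4 months on a mixed C57BL/6 background. Wild-type (WT) mice were compared with mice carrying 1 Ctnnb1 allele whose exon 3 is removed by Cre, which stabilises β-catenin (Ctnnb1ex3/WT, B), with mice carrying a Cre-activated MYC transgene at the Rosa26 locus (R26LSL-MYC, M) and with mice carrying both alleles (Ctnnb1ex3/WT;R26LSL-MYC, BM). Every mouse, WT included, received AAV8.TBG.Cre, a virus that expresses Cre from a hepatocyte promoter, and livers were taken 4 or 10 days later, with 3 mice per genotype and day. The alleles were therefore recombined in hepatocytes only, while the libraries came from whole liver tissue, in which fewer cells of a type and less RNA per cell cannot be told apart.

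Interferons bind cell surface receptors that act through JAK kinases. Type I and III interferons activate a complex containing STAT2 and IRF9 that binds a DNA element called the ISRE, and type II interferon acts through a second element, the GAS. The induced genes sense viral nucleic acid, feed back on the pathway, or block viral replication, and the liver, which receives microbial products from the gut, expresses many of them without infection. The 40 genes were divided by known role into 4 sensors of nucleic acid, 4 signalling factors, 13 antiviral effectors, 8 genes of ubiquitin, ISG15 and ADP-ribose conjugation, 6 interferon-inducible GTPases and 5 others.

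Promoter sequences from RefSeq (GRCm38.p6, 250 bases before to 50 bases after the start site) were found for 31 of the 40 genes. The ISRE core, searched on either strand as GAAA followed by any 2 bases and GAAA, was present in 16 of the 31 promoters (51.6%) and in 1079 of all 27025 promoters (3.99%). The GAS motif, searched as TTC followed by any 3 bases and GAA, was present in 8 of the 31 (25.8%) and in 2582 of all promoters (9.55%). The 9 genes without an entry, Dhx58, Zbp1, Oas2, Rtp4, Usp18, Parp9, Parp14, Iigp1 and Ifi27, were not searched. The windows of 7 genes are shown because these genes differed in how they behaved in BM liver. Each is written from 5′ to 3′ on the gene's own strand, and capitals mark every match to the ISRE core. The Isg15 window lies at chr4:156200871-156200900 on the minus strand, that of Ifit1 at chr19:34640784-34640813 on the plus strand, and those of Ifit3 and Ifit3b at chr19:34583363-34583392 and chr19:34607759-34607788 on the plus strand. The Bst2 window lies at chr8:71537580-71537609 on the minus strand, that of Irgm1 at chr11:48871428-48871457 on the minus strand, and that of Stat2 at chr10:128270266-128270295 on the plus strand.
Isg15: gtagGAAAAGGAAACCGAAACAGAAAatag
Ifit1: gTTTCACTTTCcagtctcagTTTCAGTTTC
Ifit3: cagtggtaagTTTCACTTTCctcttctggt
Ifit3b: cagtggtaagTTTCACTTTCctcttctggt
Bst2: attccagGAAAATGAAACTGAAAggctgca
Irgm1: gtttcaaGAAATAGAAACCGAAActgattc
Stat2: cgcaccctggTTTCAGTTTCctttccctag
Within the printed windows, Isg15, Ifit1, Bst2 and Irgm1 carried more than 1 match, partly overlapping in all but Ifit1. Ifit3 and Ifit3b, neighbouring genes of near-identical sequence, had the same 30 bases.

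RPF libraries held 9742197 to 14380713 counts (median 12503695) and RNA libraries 3254141 to 6540116 (median 5077217). Myc served as the check of the transgene. Its RPF level was between 43.7 and 164 CPM (counts scaled to a common library size) in all M and BM mice and between 2.42 and 35.4 in WT and B mice, while its RNA level overlapped between these groups. Removal of Ctnnb1 exon 3 cannot be read from values per gene. Levels below are CPM scaled by TMM, which sets most genes to no change, so that a difference is relative to the other genes of the liver. With scaling by library totals alone, the median log2 change of all genes reached 0.42 (RPF) and 0.54 (RNA), in BM at day 4. With TMM these medians were 0.01 and 0.03. The RPF and RNA counts under library totals are given beside the others where they differ. A gene is said to have risen or fallen where the adjusted p of edgeR's quasi-likelihood test was under 0.1. The B, M and BM comparisons of a day share the same 3 WT mice.

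In WT liver at day 4 the 40 genes together made up 824 to 1022 TPM of RNA, a level per transcript length, and 929 to 1336 at day 10. The GTPase Iigp1 had the highest level per length of the 40 genes over all mice, followed by Bst2, which tethers budding virions to the cell surface, and Ifi27. The summed level was 631 to 1003 TPM in B, 877 to 1027 in M and 828 to 977 in BM at day 4, all overlapping WT. At day 10 it was 2136 to 3994 TPM in B, above every WT mouse, against 965 to 1707 in M and 987 to 2043 in BM, which overlapped WT. TPM is relative to the total of each library and so is not centred on the other genes. Bst2, for example, read 168 to 184 TPM in BM and 122 to 128 in WT at day 4, whereas its TMM-scaled RNA level was lower in BM. The sum is also weighted to the most abundant genes, as Iigp1 and Bst2 had means of 330 and 124 TPM in WT at day 4.

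For a view by mouse, each gene was divided by its mean in the WT mice of the same day, and the median over the 40 genes was taken on the log2 scale. In RPFs at day 4 this median was -0.81, -0.32 and -0.25 in the B mice, -0.65, -0.55 and -0.79 in the M mice and -1.16, -0.96 and -0.83 in the BM mice, against -0.00, -0.02 and 0.02 in WT. All 9 mutant mice lay below all WT mice. B mouse 1 of day 4 lay below the other B mice in RPFs and also in RNA, at -0.87 against -0.26 and -0.28. At day 10 the B mice stood at 1.64, 1.79 and 0.80, the M mice at -0.35, -0.36 and 0.01 and the BM mice at 0.53, -0.08 and -0.10, against -0.07, 0.19 and -0.15 in WT. Only the B mice lay wholly apart from WT at day 10. At day 10, B mouse 3, M mouse 3 and BM mouse 1 differed from the other mice of their groups. RNA from the same livers set them apart in the same direction, with B mouse 3 at 0.70, M mouse 3 at -0.07 and BM mouse 1 at 0.61.

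**Figure D1:**
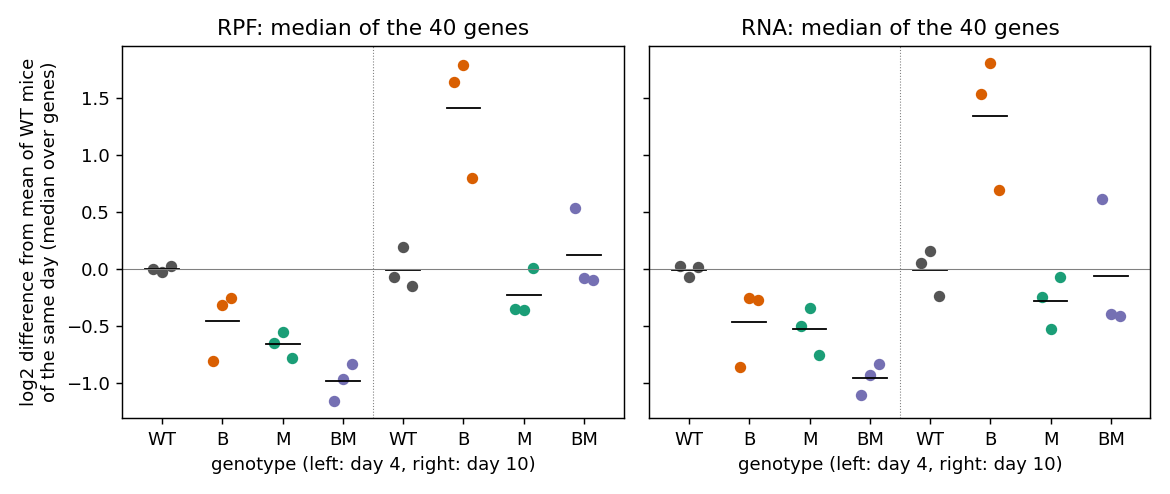
Median log2 level of the 40 interferon-stimulated genes against the mean of the same-day WT mice, in RPF and RNA libraries, with 1 point per mouse for each genotype at days 4 and 10. All B, M and BM mice lie below WT at day 4, the 3 B mice lie between 0.80 and 1.79 in RPFs at day 10, and BM mouse 1 lies above the other BM mice at day 10.

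BM livers at day 4 showed the broadest fall. Ribosome occupancy fell for 37 of the 40 genes and rose for Trim25, with a median log2 change of -1.11, where 23.7% of all genes tested fell and 27.1% rose. All 13 antiviral effectors fell (median -1.64), as did the 4 sensors (median -1.02), the 4 signalling factors (median -1.05), the 5 other genes and 7 of the 8 conjugation genes (median -0.77), while 4 of the 6 GTPases fell (median -0.68). Gbp2 and Gbp3 were the genes that passed in neither direction, at -0.21 and -0.28. RNA fell for 31 of 36 genes tested and rose for Trim25, with a median of -1.02, where 18.7% of all genes fell and 23.3% rose. With library totals, 30 genes fell and 1 rose in RPFs, and 20 fell and 5 rose in RNA. The RPF falls of Bst2, Dtx3l, Ifi27 and Irf1 and the RNA falls of Bst2, Gbp7 and Irf1 had the opposite sign under that scaling, and for Bst2 RNA the rise then passed the test.

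Isg15, a ubiquitin-like protein that is conjugated to other proteins during the interferon response, had RPF levels of 38.1, 35.3 and 38.4 CPM in the WT mice and 6.11, 7.23 and 9.75 CPM in the BM mice at day 4. All BM mice were below all WT mice, a log2 change of -2.25 (SE 0.15, adjusted p = 1.08e-06). Oasl1, a member of the oligoadenylate synthetase family, measured 20.9, 23.02 and 26.3 CPM in WT and 4.75, 5.91 and 5.91 in BM, -2.05 (SE 0.14, adjusted p = 1.29e-06) on the log2 scale. The groups did not overlap for this gene either. Rtp4, a chaperone of receptors at the cell surface, had 17.6, 18.7 and 20.7 CPM in WT and 4.75, 5.65 and 5.24 in BM, -1.84 (SE 0.13, adjusted p = 1.77e-06) on the log2 scale. The nucleic acid sensor Zbp1, which triggers cell death, had 9.33, 9.57 and 9.02 CPM in WT and 2.28, 1.38 and 2.06 in BM, -2.25 (SE 0.20, adjusted p = 5.94e-06) on the log2 scale. Ifih1, the sensor with the highest RNA level and the receptor for long double-stranded RNA, read 93.6, 118 and 108 CPM in WT and 64.5, 65.7 and 61.8 in BM, a smaller difference of -0.71 log2 units (SE 0.09, adjusted p = 0.000118). For these sensors, too, every BM mouse was below every WT mouse.

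The signalling factor Irf7, which drives interferon transcription, had RNA levels of 24.1, 27.9 and 25.8 CPM in WT and 7.61, 6.91 and 6.57 in BM at day 4, -1.84 (SE 0.16, adjusted p = 8.59e-07) on the log2 scale. Its RPFs were 12.8, 10.8 and 10.7 CPM in WT and 2.90, 3.88 and 4.25 in BM. Among the effectors, RNA of Ifit3, which binds viral RNA together with Ifit1, was 12.96, 18.3 and 17.1 CPM in WT and 3.49, 4.15 and 4.26 in BM, -1.98 (SE 0.22, adjusted p = 7.54e-06) on the log2 scale. None of these BM mice reached the WT range. Irgm1, a GTPase of autophagy and pathogen vacuoles, had 121, 107 and 112 CPM of RPFs in WT and 50.01, 48.4 and 52.7 in BM, -1.14 (SE 0.08, adjusted p = 1.57e-06) on the log2 scale. Iigp1, a related GTPase, had 475, 502 and 502 CPM in WT and 166, 248 and 225 in BM, -1.18 (SE 0.13, adjusted p = 3.65e-05) on the log2 scale. Parp14, an ADP-ribosyltransferase, had 125, 109.7 and 119 CPM in WT and 35.1, 45.5 and 49.2 in BM, -1.42 (SE 0.12, adjusted p = 5.81e-06) on the log2 scale. The groups were apart for all 3 genes.

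Trim25, the ubiquitin ligase that modifies the sensor RIG-I, went the other way. Its RPF level was 97.5, 86.04 and 89.4 CPM in WT and 98.97, 105 and 103 in BM at day 4, 0.19 (SE 0.08, adjusted p = 0.0747) on the log2 scale, and its RNA level was 94.6, 67.9 and 77.6 CPM in WT and 115, 125 and 121 in BM, 0.63 log2 units (SE 0.11, adjusted p = 0.000539). The groups did not overlap in either library type, although the lowest BM and the highest WT mouse were close in RPFs.

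M livers at day 4 had RPFs lower for 30 of 40 genes and higher for none (median -0.70), where 14.7% of all genes fell and 18.4% rose. RNA fell for 18 of 38 genes and rose for none (median -0.50), where 9.55% of all genes fell and 14.0% rose. With library totals these were 24 lower and 1 higher in RPFs, and 11 lower and 3 higher in RNA, and the RNA falls of Dtx3l and Ifih1 changed sign. With all 24 mice in 1 fit, 18 genes passed in RPFs and 7 in RNA. Isg15 RPFs were 14.3, 13.2 and 9.44 CPM in the M mice, all below WT, -1.57 (SE 0.14, adjusted p = 7.55e-05) on the log2 scale. Ifit1, an effector that binds the 5′ end of viral RNA, had 18.02, 20.2 and 23.9 CPM in WT and 9.39, 9.04 and 7.62 in M, -1.22 (SE 0.14, adjusted p = 0.000266) on the log2 scale. Every M mouse was also below WT for the conjugation gene Parp9, at 34.2, 37.9 and 36.8 CPM against 59.4, 58.05 and 66.2 CPM, -0.72 (SE 0.09, adjusted p = 0.000342) on the log2 scale. Parp14 RPFs read 65.97, 68.9 and 60.2 CPM in M, -0.83 (SE 0.08, adjusted p = 0.00013) on the log2 scale, and Iigp1 RPFs 288, 321 and 288 CPM, -0.69 (SE 0.08, adjusted p = 0.0002). In RNA the call with the smallest adjusted p was Irgm1, with 115, 94.7 and 121 CPM in WT and 55.1, 62.6 and 58.6 in M, -0.87 (SE 0.11, adjusted p = 9.05e-05) on the log2 scale. RNA of Irf9, the DNA-binding subunit of the ISRE-binding complex, was 41.4, 36.01 and 33.99 CPM in WT and 18.9, 22.05 and 19.4 in M, -0.84 (SE 0.12, adjusted p = 0.000372) on the log2 scale. RNA of Zbp1 was 13.6, 10.04 and 8.20 CPM in WT and 3.79, 4.14 and 2.62 in M, -1.53 (SE 0.26, adjusted p = 0.000918) on the log2 scale. The M and WT mice did not overlap for Irgm1, Irf9 or Zbp1 RNA.

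B livers at day 4 had a smaller change. RPFs fell for 18 of 40 genes and rose for none (median -0.45), where 6.31% of all genes fell and 6.24% rose. The falls took in 7 of 8 conjugation genes, 5 of 13 effectors, 2 of 4 signalling factors, 2 of 6 GTPases, 1 of 4 sensors and 1 of 5 other genes. RNA fell for 8 of 37 genes and rose for none (median -0.43), where 3.54% of all genes fell and 4.52% rose. Library totals gave 10 lower and 0 higher in RPFs and 4 lower and 2 higher in RNA. The RPF count was 8 without WT mouse 1 and 10 without WT mouse 3, and the RNA count was 4 without either. With all 24 mice in 1 fit, 5 genes passed in RPFs and 1 in RNA. Iigp1 had 292, 308 and 285 CPM of RPFs in B, -0.76 (SE 0.08, adjusted p = 0.000308) on the log2 scale against WT. Parp14 had 48.5, 72.5 and 67.3 CPM, -0.93 log2 units (SE 0.13, adjusted p = 0.00141), and Zbp1 3.48, 5.03 and 5.20 CPM, -1.04 log2 units (SE 0.17, adjusted p = 0.00375). Irf7 RPFs were 5.87, 5.96 and 6.83 CPM in B, -0.90 (SE 0.14, adjusted p = 0.00307) on the log2 scale, and Isg15 RPFs were 14.9, 22.3 and 26.9 CPM, -0.82 (SE 0.17, adjusted p = 0.0116). For these 5 genes all B mice were below all WT mice. RNA of Oasl2, a further oligoadenylate synthetase family member, was 5.46, 5.24 and 4.34 CPM in WT and 2.66, 2.51 and 1.99 in B, -1.06 (SE 0.28, adjusted p = 0.0416) on the log2 scale. Usp18, the protease that removes Isg15 and restrains the receptor, read 12.2, 21.9 and 24.1 CPM in B against 16.6, 18.9 and 16.2 CPM in WT, 0.15 (SE 0.21, adjusted p = 0.752) on the log2 scale, with overlapping groups and no call.

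Where MYC was added to β-catenin at day 4 (BM against B), RPFs were lower for 29 of 37 genes and higher for Trim25 (median -0.55), where 20.8% of all genes fell and 23.9% rose. RNA fell for 21 of 34 genes and rose for Trim25 and Dtx3l (median -0.48), where 16.0% of all genes fell and 18.8% rose. With library totals the splits were 12 lower and 2 higher in RPFs and 10 lower and 2 higher in RNA, and the RPF fall of Herc6 vanished. Without B mouse 3 the RPF split was 17 lower and 1 higher, and with all 24 mice in 1 fit 11 genes passed in RNA. Oasl1 RPFs were 11.8, 21.8 and 24.3 CPM in B and 4.75, 5.91 and 5.91 in BM, -1.76 (SE 0.24, adjusted p = 0.000379) on the log2 scale. Dhx58, a regulator of the RNA sensors, had 13.6, 19.8 and 22.2 CPM in B and 9.01, 8.15 and 8.49 in BM, -1.07 log2 units (SE 0.17, adjusted p = 0.000779). Stat2, a subunit of the ISRE-binding complex, had 38.96, 43.3 and 41.5 CPM in B and 26.9, 29.05 and 26.3 in BM, -0.55 log2 units (SE 0.09, adjusted p = 0.000873). The 2 genotypes did not overlap for any of these 3 genes. Rsad2, an enzyme that makes a chain-terminating nucleotide, had 8.43, 14.9 and 15.7 CPM in B and 4.01, 5.39 and 6.17 in BM, -1.29 log2 units (SE 0.24, adjusted p = 0.00245). Trim25 RPFs were 65.4, 73.6 and 75.8 CPM in B and 98.97, 105 and 103 in BM, 0.55 log2 units (SE 0.08, adjusted p = 0.000538), with every BM mouse above every B mouse. Irf7 RNA was 18.2, 20.5 and 20.3 CPM in B and 7.61, 6.91 and 6.57 in BM, -1.44 (SE 0.15, adjusted p = 2.93e-05) on the log2 scale. Where β-catenin was added to MYC at day 4 (BM against M), RPFs were lower for 19 of 38 genes and higher for 1, where 18.8% of all genes fell and 19.2% rose. RNA was lower for 18 of 34 and higher for 2, where 15.1% fell and 15.4% rose. With library totals the splits were 12 lower and 3 higher in RPFs and 10 lower and 3 higher in RNA. The RNA count was 11 genes when M mouse 1 was left out and 13 when BM mouse 1 was, and with all 24 mice in 1 fit 9 genes passed in RPFs and 8 in RNA.

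**Figure D2:**
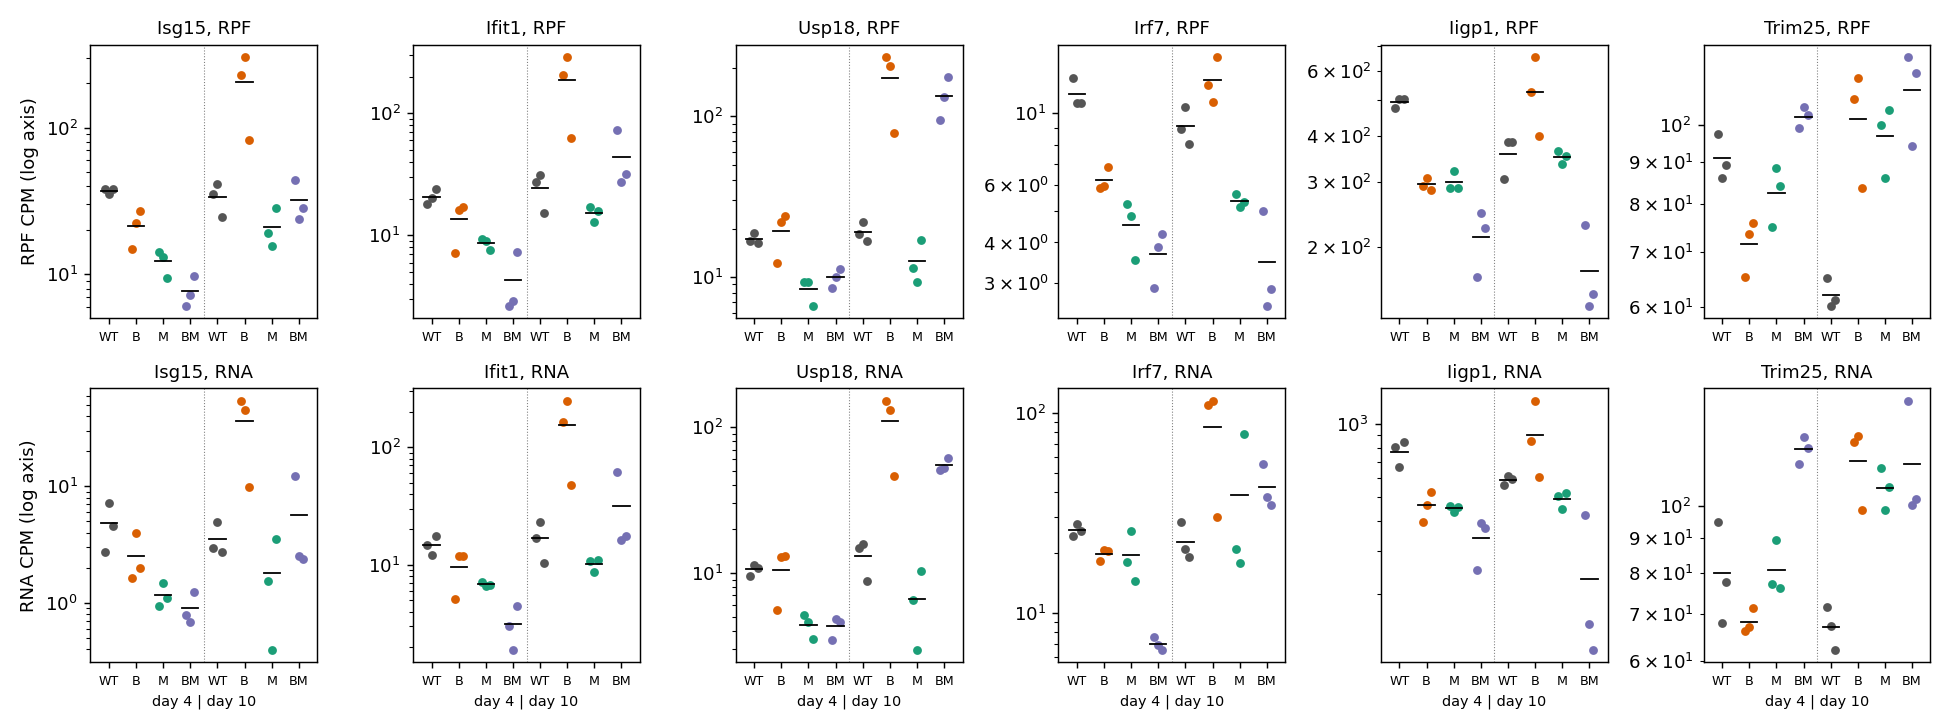
RPF and RNA levels in CPM on log axes of Isg15, Ifit1, Usp18, Irf7, Iigp1 and Trim25 in every mouse, by genotype and day, with horizontal lines at the group means. In RPFs, Isg15 and Ifit1 have their lowest group mean in BM at day 4 and their highest in B at day 10, Usp18 is high in both B and BM at day 10, and Irf7 RPFs in BM lie below WT at day 10 while its RNA lies above.

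At day 10 the direction in B livers was the opposite. RPFs rose for 38 of 40 genes and fell for none (median 1.60), where 13.4% of all genes rose and 12.0% fell. All 13 effectors (median 2.03), 4 sensors (median 1.38), 8 conjugation genes (median 1.31), 6 GTPases (median 1.16) and 5 other genes rose, along with Irf9 and Stat2 of the 4 signalling factors. Irf1 and Irf7 RPFs did not pass, at 0.17 log2 units (SE 0.14, adjusted p = 0.431) and 0.45 log2 units (SE 0.17, adjusted p = 0.107). RNA rose for 34 of 39 genes and fell for none (median 1.49), where 8.06% of all genes rose and 7.52% fell. Library totals gave 40 higher in RPFs and 38 in RNA. B mouse 3 had the lowest level of the 3 B mice for most genes, and the counts without it were 38 in RPFs and 38 in RNA.

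Usp18 RPFs were 18.5, 21.9 and 16.8 CPM in WT and 234, 206 and 78.8 in B at day 10, 8.91-fold higher, a log2 change of 3.16 (SE 0.35, adjusted p = 0.000701). Every B mouse was above every WT mouse. Ifit2, an effector related to Ifit1, had 6.14, 8.03 and 7.66 CPM in WT and 50.2, 48.5 and 23.5 in B, 2.47 (SE 0.28, adjusted p = 0.000728) on the log2 scale. Trim30a, a TRIM protein that restrains inflammatory signalling, had 9.64, 12.3 and 10.5 CPM in WT and 41.3, 54.3 and 26.5 in B, 1.89 log2 units (SE 0.24, adjusted p = 0.00143). For both, the groups were apart. Rtp4 had 15.4, 21.5 and 15.4 CPM in WT and 55.9, 66.7 and 38.24 in B, 1.60 log2 units (SE 0.21, adjusted p = 0.00163). Oasl2 had 6.75, 10.6 and 7.30 CPM in WT and 31.1, 42.2 and 21.2 in B, 1.92 log2 units (SE 0.26, adjusted p = 0.00196). Isg15 RPFs were 35.4, 41.3 and 24.7 CPM in WT and 228, 303 and 82.9 in B, 5.95-fold higher, 2.57 log2 units (SE 0.41, adjusted p = 0.0035). B mouse 3 again stood lowest for these 3 genes, yet above all WT mice. Ifit1 had 27.6, 31.2 and 15.2 CPM in WT and 207, 289 and 62.3 in B, 7.4-fold higher, 2.89 log2 units (SE 0.49, adjusted p = 0.00484). Bst2, the effector with the highest RNA level, had 205, 193 and 168 CPM in WT and 298, 347 and 231 in B, 0.61 log2 units (SE 0.15, adjusted p = 0.0252), a smaller rise with no overlap.

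In RNA, Ifit2 had 11.6, 12.9 and 9.10 CPM in WT and 73.7, 74.2 and 38.1 in B at day 10, 2.47 (SE 0.26, adjusted p = 0.000136) on the log2 scale. Oas1a, which makes the messenger that activates RNase L, had 1.68, 2.16 and 0.492 CPM in WT and 15.3, 20.1 and 7.19 in B, 3.24 log2 units (SE 0.47, adjusted p = 0.00127). Xaf1, an antagonist of the apoptosis inhibitor XIAP, had 13.7, 13.5 and 11.1 CPM in WT and 55.01, 47.9 and 26.3 in B, 1.76 log2 units (SE 0.25, adjusted p = 0.00121). The groups did not overlap for any of the 3. Rsad2 RNA was 30.3, 41.3 and 20.2 CPM in WT and 254, 293 and 82.7 in B, 2.78 log2 units (SE 0.41, adjusted p = 0.0013), and Irf7 RNA was 28.4, 20.8 and 18.9 CPM in WT and 109, 115 and 30.03 in B, 1.91 log2 units (SE 0.40, adjusted p = 0.00954). B mouse 3 was close to the highest WT mouse for Irf7 RNA.

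M livers at day 10 differed less. RPFs fell for 8 of 40 genes and rose for Trim25 (median -0.19, or 0.05 with library totals), where 8.41% of all genes fell and 10.9% rose. RNA fell for 5 of 39 and rose for Trim25 and Ifi27 (median -0.27), where 6.64% fell and 8.72% rose. Library totals gave 3 lower and 2 higher in RPFs and 3 lower and 3 higher in RNA, and 4 genes passed in RPFs with all 24 mice in 1 fit. The RPF count of 9 genes depended on single mice, being 16 when M mouse 3 was left out, 5 when WT mouse 1 or M mouse 2 was, and 4 when WT mouse 2 or M mouse 1 was. The RNA count of 7 genes was 13 without M mouse 3 and 4 without WT mouse 2. Irf9 RPFs were 34.98, 37.3 and 35.1 CPM in WT and 23.7, 21.4 and 24.9 in M, -0.62 (SE 0.10, adjusted p = 0.00754) on the log2 scale. Igtp, a GTPase of the same family as Irgm1, had 41.6, 53.2 and 47.4 CPM in WT and 27.8, 29.6 and 31.8 in M, -0.67 log2 units (SE 0.11, adjusted p = 0.00988). Irf7 RPFs were 8.94, 10.5 and 8.02 CPM in WT and 5.64, 5.14 and 5.31 in M, -0.77 log2 units (SE 0.16, adjusted p = 0.0184). All M mice were below all WT mice for these 3 genes. Irgm1 had 79.7, 71.3 and 76.5 CPM in M against 94.1, 106 and 93.4 CPM in WT, -0.36 log2 units (SE 0.10, adjusted p = 0.0565), and Gbp7 had 18.3, 17.98 and 25.4 CPM against 28.8, 35.7 and 26.5 CPM, -0.56 log2 units (SE 0.16, adjusted p = 0.0578). Trim25 RPFs were 65.04, 60.3 and 61.2 CPM in WT and 99.8, 86.2 and 104 in M, 0.64 log2 units (SE 0.11, adjusted p = 0.0095), with no overlap. In RNA, Stat2 had 58.04, 55.6 and 40.8 CPM in WT and 31.9, 32.4 and 29.3 in M, -0.69 log2 units (SE 0.14, adjusted p = 0.0127). Ifi27, a small mitochondrial protein, had 53.4, 34.7 and 34.9 CPM in WT and 54.9, 57.4 and 98.8 in M, 0.83 log2 units (SE 0.24, adjusted p = 0.0492), with M mouse 3 well above the others.

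In BM livers at day 10, the shares of the genes that rose and fell were near those over all genes. Against WT, RPFs rose for 10 genes and fell for 10 of 39 tested (median 0.19), where 24.5% of all genes rose and 22.3% fell. RNA rose for 9 and fell for 9 of 39 (median 0.06), where 23.1% of all genes rose and 22.7% fell. Library totals gave 17 higher and 2 lower in RPFs and 14 higher and 3 lower in RNA. Ifi27, Ifit2, Ifit3, Ifit3b, Oas1a, Rsad2, Trim25, Trim30a, Usp18 and Xaf1 rose in RPFs. Bst2, Dtx3l, Igtp, Iigp1, Irf1, Irf7, Irf9, Irgm1, Parp14 and Stat2 fell. The falls held all 4 signalling factors (median -1.11) and 3 of 6 GTPases (median -0.31), and the rises 5 of 12 effectors tested (median 0.66), 3 of 8 conjugation genes and 2 of 5 other genes, while no sensor passed. BM mouse 1 stood above BM mice 2 and 3 for many genes. Without it, 10 genes rose and 13 fell in RPFs (median -0.08), and 8 rose and 17 fell in RNA (median -0.48). The RNA count was 14 without BM mouse 2. The RPF count was 7 higher and 5 lower without WT mouse 1, 9 higher and 3 lower without BM mouse 2 and 10 higher and 3 lower without BM mouse 3.

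Usp18 had RPF levels of 94.5, 132 and 176 CPM in the BM mice, against 18.5, 21.9 and 16.8 CPM in WT, 6.97-fold higher, a log2 change of 2.80 (SE 0.26, adjusted p = 0.000367). All BM mice were far above WT, and mouse 1 was the lowest of the 3. Ifit2 had 28.3, 31.7 and 38.9 CPM in BM, 2.17 (SE 0.20, adjusted p = 0.000378) on the log2 scale against WT, and Ifit3 had 81.4, 80.3 and 92.6 CPM against 36.6, 48.98 and 26.9 CPM, 1.16 log2 units (SE 0.22, adjusted p = 0.00576). Ifi27 had 122, 88.3 and 81.7 CPM in WT and 175, 203 and 213 in BM, 1.00 log2 units (SE 0.20, adjusted p = 0.00708). None of these 4 genes overlapped between the groups. Trim25 RPFs were 121, 94.2 and 115 CPM in BM, 0.81 log2 units (SE 0.15, adjusted p = 0.00532) against WT, and Oas1a RNA was 7.13, 5.29 and 5.32 CPM, 1.97 log2 units (SE 0.41, adjusted p = 0.00593). Isg15, by contrast, read 44.3, 23.7 and 28.5 CPM of RPFs in BM and 35.4, 41.3 and 24.7 in WT, -0.09 log2 units (SE 0.27, adjusted p = 0.814), with overlapping groups. Ifit1 read 73.5, 27.3 and 31.7 CPM in BM, 0.82 log2 units (SE 0.40, adjusted p = 0.144), with BM mouse 1 apart from the other two.

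Among the falls, Iigp1 had RPF levels of 305, 384 and 385 CPM in WT and 229.8, 139 and 149.5 in BM, -1.07 (SE 0.22, adjusted p = 0.00848) on the log2 scale. Irf1, a transcription factor induced early by interferon, had 27, 36.6 and 33.2 CPM in WT and 23.1, 8.28 and 10.5 in BM, -1.22 log2 units (SE 0.36, adjusted p = 0.0301). Stat2 had 58.04, 55.6 and 40.8 CPM of RNA in WT and 32.3, 12.9 and 11.96 in BM, -1.41 log2 units (SE 0.35, adjusted p = 0.0139). BM mice 2 and 3 were the lowest for all 3 genes, and BM mouse 1 was nearer to WT but still below it. Bst2 RPFs were 152, 118 and 128 CPM in BM, -0.52 log2 units (SE 0.16, adjusted p = 0.0351) against WT, and Parp14 RPFs 78.5, 46.8 and 50.5 CPM against 87.5, 119.8 and 84.8 CPM, -0.75 log2 units (SE 0.23, adjusted p = 0.0369).

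Directly against B at day 10, RPFs in BM were lower for 36 of 40 genes and higher for none (median -1.39), where 17.4% of all genes fell and 19.1% rose. RNA was lower for 36 of 40 and higher for none (median -1.58), where 15.8% fell and 15.9% rose. The 36 genes lower in RNA included Usp18, Ifit2 and Ifi27. With library totals 34 genes were lower in each library type. Usp18, Ifit2, Ifi27 and Trim25 RPFs did not pass, with log2 changes of -0.34 (SE 0.41, adjusted p = 0.554), -0.28 (SE 0.29, adjusted p = 0.497), 0.04 (SE 0.17, adjusted p = 0.883) and 0.14 log2 units (SE 0.18, adjusted p = 0.584). For Usp18 the B mice read 234, 206 and 78.8 CPM and the BM mice 94.5, 132 and 176 CPM, overlapping. Isg15 went from 228, 303 and 82.9 CPM in B to 44.3, 23.7 and 28.5 in BM, -2.65 log2 units (SE 0.47, adjusted p = 0.0112). Rtp4 RPFs were 55.9, 66.7 and 38.24 CPM in B and 21.4, 19.3 and 19.9 in BM, -1.38 log2 units (SE 0.22, adjusted p = 0.00759), and Irgm1 RPFs 214, 228 and 135 CPM and 80.97, 67.1 and 76.2 CPM, -1.34 log2 units (SE 0.22, adjusted p = 0.0086). The genotypes were apart for Isg15, Rtp4 and Irgm1. Irf7 RPFs were 12.2, 10.8 and 14.9 CPM in B and 5.00, 2.56 and 2.88 in BM, -1.82 log2 units (SE 0.29, adjusted p = 0.00759), Iigp1 RPFs 525, 653 and 399.9 CPM and 229.8, 139 and 149.5 CPM, -1.59 log2 units (SE 0.26, adjusted p = 0.0086), and Bst2 RNA 166, 126 and 78.6 CPM and 52.3, 33.1 and 32.4 CPM, -1.65 log2 units (SE 0.29, adjusted p = 0.00527). RNA of Trim30a was 41.8, 56.6 and 24.3 CPM in B and 16.6, 11.5 and 11.4 in BM, -1.63 log2 units (SE 0.31, adjusted p = 0.00684), that of Cmpk2, a mitochondrial nucleotide kinase, 45.97, 56.5 and 20.7 CPM and 14.8, 8.05 and 6.65 CPM, -2.04 log2 units (SE 0.40, adjusted p = 0.00777), and that of Herc6, the ligase that attaches Isg15 in mice, 75.7, 147 and 58.98 CPM and 37.4, 21.9 and 22.9 CPM, -1.78 log2 units (SE 0.35, adjusted p = 0.00781). Every BM mouse was below every B mouse for these genes. The RNA count of 36 was 21 without B mouse 2 and 22 without BM mouse 2.

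Against M at day 10, RPFs in BM were higher for 8 of 40 genes and lower for 4 (median 0.28), where 16.0% of all genes rose and 16.6% fell. RNA was higher for 6 and lower for 4 of 39 (median 0.07), where 13.7% rose and 18.5% fell. Library totals gave 9 higher and 2 lower in RPFs and 8 higher and 2 lower in RNA, and 16 genes passed in RNA with all 24 mice in 1 fit. Usp18 and Ifit2 led the rises, at 3.41 log2 units (SE 0.32, adjusted p = 0.00107) and 2.55 (SE 0.20, adjusted p = 0.000683) on the log2 scale, with M mice at 11.4, 9.25 and 17.1 CPM and 4.69, 5.58 and 6.47 CPM, below every BM mouse. Iigp1 fell, at -1.04 log2 units (SE 0.21, adjusted p = 0.017). The RPF count of 12 was 18 without BM mouse 1, 7 without BM mouse 2, 6 without M mouse 1 and 4 without M mouse 2. The RNA count of 10 was 21 without BM mouse 1 and 6 without M mouse 1 or M mouse 2.

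**Figure D3:**
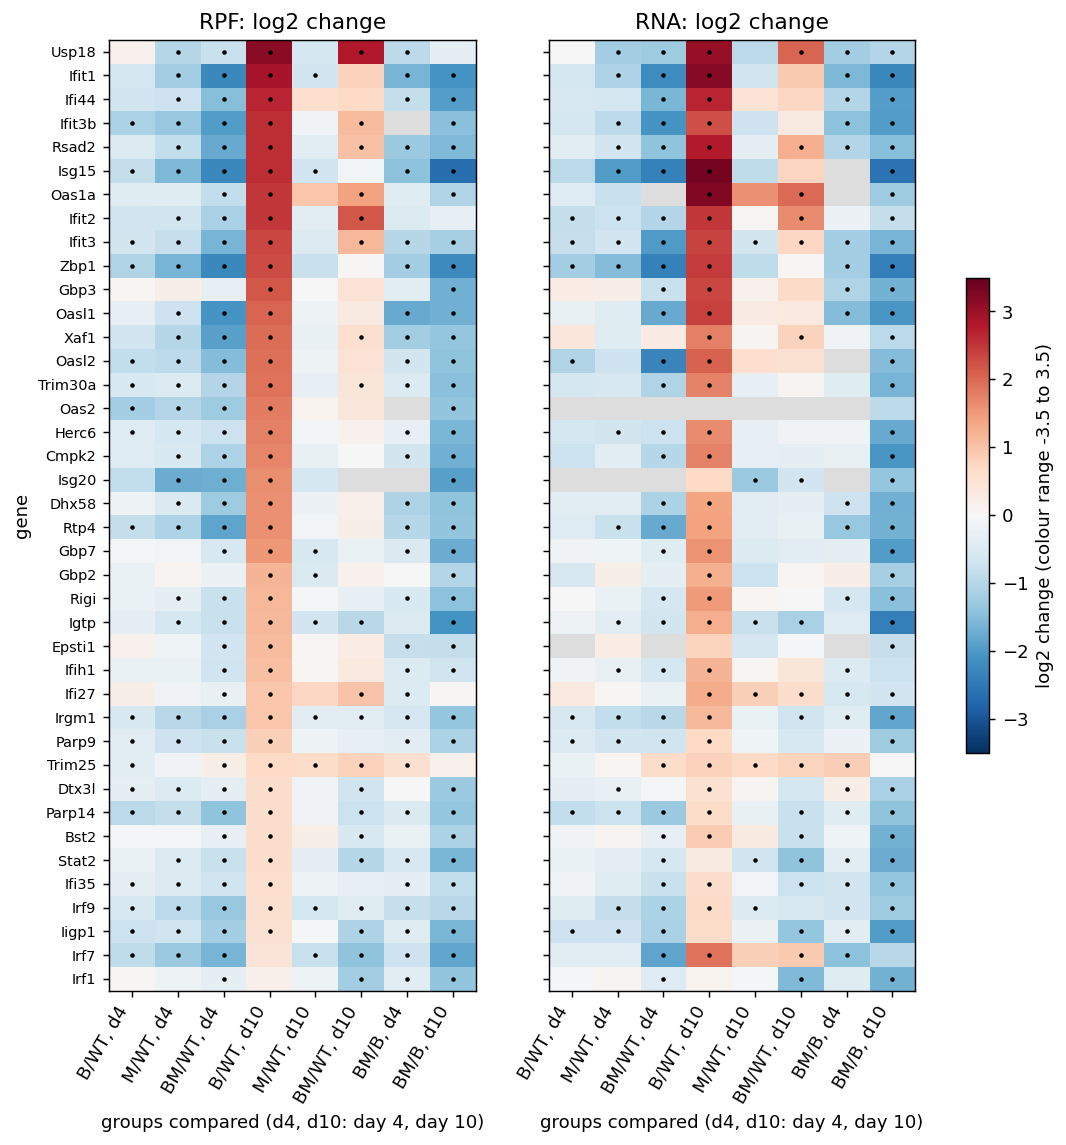
Log2 change of each of the 40 genes in 8 comparisons of genotypes at days 4 and 10, for RPFs and RNA. Genes are ordered from the highest to the lowest RPF change in B against WT at day 10. Dots mark an adjusted p under 0.1, and grey marks a gene that was not tested. Day 4 is mostly lower, B at day 10 is higher for 38 genes in RPFs, and BM at day 10 holds 10 higher and 10 lower genes.

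The change between days was tested as the difference of each genotype's effect against same-day WT. WT liver itself had 2 of 40 genes lower in RPFs at day 10 than at day 4, where 2.47% of all genes fell and 2.13% rose. These were Trim25, at -0.56 log2 units (SE 0.09, adjusted p = 0.0104), and Iigp1, at -0.47 log2 units (SE 0.11, adjusted p = 0.0515). Without WT day 10 mouse 2 the count was 5, without any 1 WT day 4 mouse it was 1, and library totals gave 2 higher and 2 lower. RNA of 0 of 39 genes passed in WT by edgeR, where 1.21% of all genes rose and 1.22% fell. At an unadjusted p under 0.05 there were 6 of 39, where 11.7% of all genes were, DESeq2 called 2, and library totals gave 4 higher and 0 lower. The B effect was more positive at day 10 for 38 of 40 genes in RPFs and 35 of 39 in RNA (medians 1.94 and 1.82), where 8.44% and 4.52% of all genes were. The BM effect was more positive for 27 of 40 in RPFs and 18 of 39 in RNA (medians 1.10 and 0.84), where 16.9% and 12.9% of all genes were. Library totals left the B counts at 38 and 35 and gave 24 in RPFs for BM, and 18 more positive and 1 more negative in RNA. The M effect was more positive for 3 of 40 in RPFs, Trim25, Iigp1 and Parp9, and for Irgm1 in RNA, where 0.642% and 0.458% of all genes were, and library totals gave 2 and 0. The M counts were unstable, with 0 in RPFs without WT day 4 mouse 1 or M day 4 mouse 1, 1 without WT day 4 mouse 3, M day 4 mouse 3 or M day 10 mouse 1, and 5 without M day 10 mouse 3. The RNA count was 4 without WT day 4 mouse 2, 2 without M day 4 mouse 2 and 0 without most others. Without BM day 10 mouse 1 the BM effect was more positive for 26 genes and more negative for 5 in RPFs, and 18 and 6 in RNA. In RPFs, the largest day difference of the BM effect was that of Usp18, 3.59 log2 units (SE 0.30, adjusted p = 1.51e-05), and of the B effect that of Ifit3b, 3.69 log2 units (SE 0.75, adjusted p = 0.00719), whose reads cannot be fully told apart from those of Ifit3.

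The BM effect was also set against the B and M effects added together, a comparison made after its values were seen. At day 4 the median difference from the sum was -0.01 in RPFs. The RPFs of Trim25 and Dtx3l were higher than the sum, at 0.63 log2 units (SE 0.12, adjusted p = 0.00405) and 0.45 log2 units (SE 0.11, adjusted p = 0.0176), and those of Oasl1 and Dhx58 lower, at -1.09 log2 units (SE 0.30, adjusted p = 0.0267) and -0.61 log2 units (SE 0.23, adjusted p = 0.0916), where 8.19% of all genes were higher and 11.7% lower. Library totals gave 2 higher and 1 lower, and without B mouse 1 there were 2 higher and 7 lower. In RNA, 2 of the genes tested were higher and 2 lower (median -0.06), where 5.56% and 7.06% of all genes were, and 8 passed without WT mouse 2. At day 10, 19 of 40 genes were below the sum in RPFs and none above (median -1.25), where 7.88% of all genes were below and 4.77% above. In RNA 16 of 40 were below and none above (median -1.29), where 4.57% and 3.41% were. Library totals gave 21 in RPFs and 11 in RNA. These day 10 counts rested on single mice, ranging from 2 to 34 in RPFs and from 2 to 33 in RNA as each mouse was left out. The highest counts came without BM mouse 1, the RPF count was 2 without WT mouse 3 or BM mouse 2 and 4 to 11 without WT mouse 1, B mouse 1, B mouse 2, any 1 M mouse or BM mouse 3, and the RNA count was 26 without B mouse 3 and 2 to 5 without any 1 of the other mice. Iigp1 and Bst2 RPFs were below the sum at -1.59 log2 units (SE 0.30, adjusted p = 0.0163) and -1.36 log2 units (SE 0.28, adjusted p = 0.021).

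Translation efficiency (TE), the RPF level divided by the RNA level, was tested as the interaction of genotype and library type. Across the genes tested, Pearson correlations of the RPF with the RNA changes ranged over the comparisons from 0.578 (39 genes, BM against B and M added, day 4) to 0.917 (39 genes, BM against M, day 10). Against WT they were 0.733, 0.878 and 0.813 for B, M and BM at day 4 and 0.909, 0.729 and 0.831 at day 10. These describe genes measured in the same livers, which are not independent points. TE passed in 2 instances, both lower. In BM at day 4 it was 1 of 36 genes, where 0.532% of all genes fell and 1.6% rose, and in BM at day 10 it was 1 of 38, where 0.144% fell and 0.115% rose. In the other comparisons with WT or B, edgeR called 0 genes, where 0.0293% of all genes were higher and 0.0195% lower in B at day 4, 0.884% and 0.106% in M at day 4, 1.09% and 0.0665% in BM against B at day 4, 0.0282% and 0.0188% in B at day 10, 0.0% in M at day 10, and 0.0563% and 0.113% in BM against B at day 10. At an unadjusted p under 0.05 there were 2 of 37 in B, 1 of 38 in M and 4 of 33 in BM against B at day 4, where 2.86%, 7.16% and 6.56% of all genes were. At day 10 there were 1 of 39 in B, 1 of 39 in M and 1 of 40 in BM against B, where 5.23%, 3.2% and 7.08% were. That fit does not use that both libraries of a mouse came from the same liver. With each mouse as a block, Irf7 also passed in M at day 4 (-0.93, adjusted p = 0.0099) and in B at day 10 (-1.32, adjusted p = 0.065), Trim25 in BM at day 4 against WT (-0.44, adjusted p = 0.00831) and against B (-0.30, adjusted p = 0.0564), and Xaf1 in BM against B at day 4 (-1.09, adjusted p = 0.072). With that block 1.0% of all genes fell in M and 2.55% in BM against WT at day 4, 1.28% in BM against B at day 4 and 1.19% in B at day 10.

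Xaf1 (chr11:72192397-72204559, GRCm39) was the gene called in BM at day 4. Its RPFs were 5.03, 5.82 and 3.72 CPM in WT and 0.926, 1.183 and 1.73 in BM, while its RNA was 11.8, 17.5 and 14.7 CPM in WT and 14.4, 20.4 and 17.6 in BM. The RPF level was lower in every BM mouse and the RNA level overlapped. TE was 0.425, 0.333 and 0.253 in WT and 0.0642, 0.0580 and 0.0982 in BM, a log2 difference of -2.18 (SE 0.34, adjusted p = 0.0022). The RPFs were counted on a transcript of 651 bases, and the RNA over this and a longer one. The RNA estimated for the short transcript was 14, 17 and 20 counts in WT and 8, 17 and 11 in BM, and that for the transcript of 2597 bases was 38, 63 and 41 in WT and 83, 101 and 88 in BM. The longer transcript thus carried the RNA that was higher in BM, and its RPFs were not counted apart. The part of transcript choice in the TE difference was not tested.

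Irf7 (chr7:140842619-140846398, GRCm39) was the gene called at day 10. In BM its RPFs were 5.00, 2.56 and 2.88 CPM against 8.94, 10.5 and 8.02 in WT, and its RNA 55.6, 37.95 and 34.6 CPM against 28.4, 20.8 and 18.9. RPFs were lower in every BM mouse and RNA higher in every BM mouse, and both differences passed, at -1.39 log2 units (SE 0.28, adjusted p = 0.00751) and 0.92 log2 units (SE 0.23, adjusted p = 0.0142). TE was 0.315, 0.504 and 0.424 in WT and 0.0899, 0.0673 and 0.0835 in BM, a log2 difference of -2.30 (SE 0.38, adjusted p = 0.0268). In the B mice TE was 0.112, 0.0944 and 0.496, low in the 2 mice whose RNA was high and at the WT level in mouse 3, -1.46 log2 units (SE 0.53, adjusted p = 0.881). In the M mice Irf7 RNA was 20.8, 17.7 and 78.1 CPM and TE was 0.272, 0.291 and 0.0680, lowest in the mouse with the most RNA, and the difference was -1.61 log2 units (SE 0.63, adjusted p = 1). The 3 annotated Irf7 transcripts moved alike, with RNA counts of 202, 236 and 62 in B and 104, 57 and 45 in BM for the transcript on which RPFs were counted. The call for Irf7 in BM was kept by the block but lost when any 1 WT mouse, BM mouse 2 or BM mouse 3 was left out. Without BM mouse 1, TE was called for 11 of the interferon-stimulated genes, 10 higher and 1 lower. The share of all genes called in that fit was not determined, so these calls cannot be set against it.

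**Figure D4:**
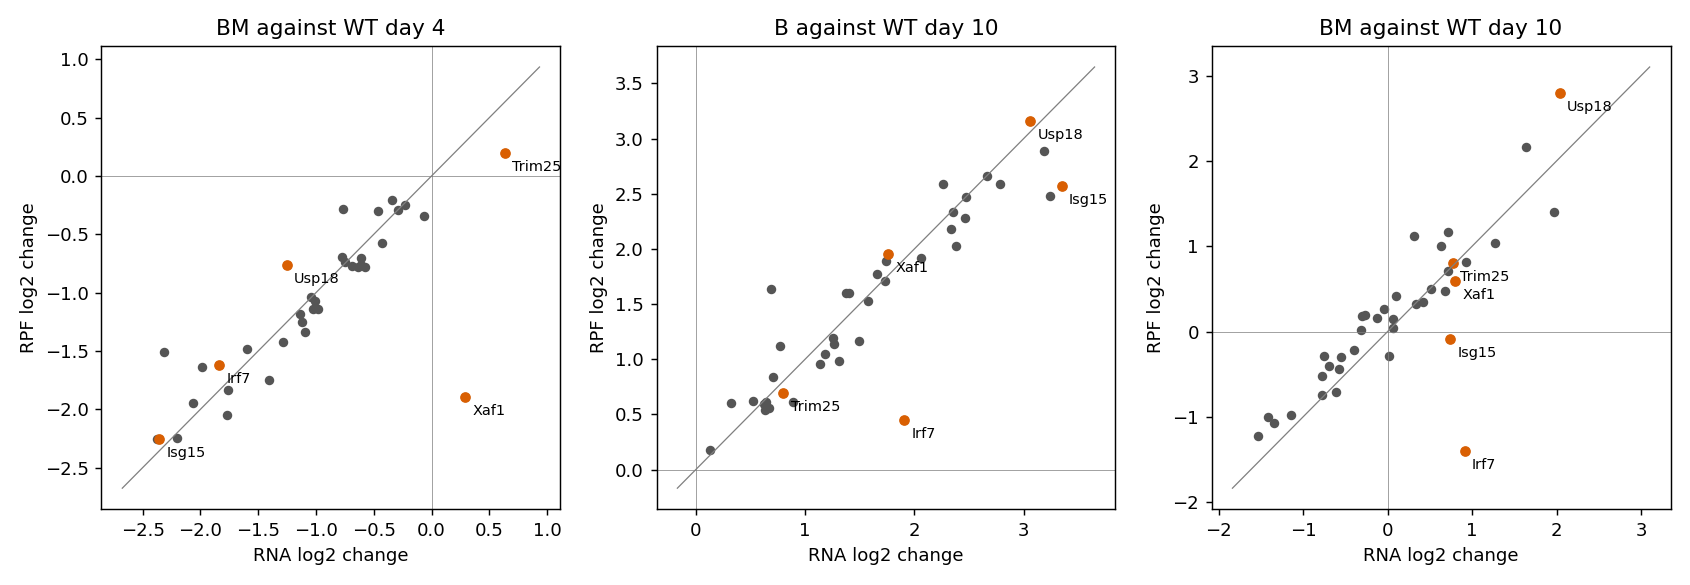
Log2 change of RNA (horizontal) against log2 change of RPFs (vertical) for the interferon-stimulated genes in BM at day 4, B at day 10 and BM at day 10, each against WT, with 1 point per gene. Most genes lie along the diagonal, Xaf1 lies below it in BM at day 4, and Irf7 lies below it at day 10.

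Genes upstream of the 40 were taken from lists of the pathway. The interferon ligands Ifna2, Ifnk, Ifng and Ifnl2 were too low to test and listed at 0 TPM in nearly all mice. The other 4 ligands of the list, Ifnb1, Ifna1, Ifna4 and Ifnl3, had no entry under their symbols and so were not used here. Among the receptor, kinase and regulator genes reported here, RPFs of Socs3 rose and those of Ifnar2 fell in B at day 10, Ifngr1 rose and Ifnar2 and Jak1 fell in BM at day 4, and Ifnar1, Ifnar2, Jak2 and Tyk2 fell in BM at day 10. Of all genes, 13.4% rose and 12.0% fell in B at day 10, 27.1% rose and 23.7% fell in BM at day 4, and 24.5% rose and 22.3% fell in BM at day 10. Ifnar2, a subunit of the type I receptor, fell in B at both days and in BM at both days, by 0.43 and 0.86 in B and by 0.88 and 1.10 in BM on the log2 scale at days 4 and 10. Of 14 tested genes that induce interferon, 8 fell and 1 rose in BM at day 4, and 4 rose and 3 fell in B at day 10, beside the same shares of all genes.

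Among 35 further interferon-stimulated genes that were not part of the 40, 32 were in the tables. Their RPFs fell for 10 of 31 in B, 12 of 32 in M and 27 of 31 in BM at day 4, with none higher, where 6.31%, 14.7% and 23.7% of all genes fell. At day 10 they rose for 27 of 32 in B with none lower, where 13.4% of all genes rose, and rose for 1 and fell for 6 of 32 in M, where 10.9% rose and 8.41% fell. In BM at day 10 they rose for 9 and fell for 9 of 31, where 24.5% of all genes rose and 22.3% fell. Library totals gave 5 lower in B, 8 lower and 1 higher in M and 17 lower and 2 higher in BM at day 4, and 32 higher in B, 4 higher and 3 lower in M and 14 higher and 4 lower in BM at day 10. The summed RNA level of the list is weighted to abundant genes and is not centred on the other genes. It was 571 to 656 TPM in BM and 487 to 554 in WT at day 4. RNA tested by gene was lower for 24 of 28 in BM at day 4 and higher for none (median -0.65), where 18.7% of all genes fell. Library totals gave 8 lower and 3 higher in RNA (median -0.13). In RPFs, 12 of 12 genes of MHC class I antigen presentation fell in BM at day 4. At day 10, 6 rose in B and 6 fell in BM. Of all genes, 23.7%, 13.4% and 22.3% did. Library totals gave 10 lower in BM at day 4, 10 higher in B at day 10 and 3 lower and 1 higher in BM at day 10. Their summed RNA level was 2118 to 2251 TPM in BM against 1727 to 2025 in WT at day 4, and 2463 to 3075 against 1969 to 2524 at day 10. RNA tested by gene was lower in BM for 11 of the 12 at day 4 and for 6 at day 10. None was higher, and 18.7% and 22.7% of all genes fell. Library totals gave 5 lower and 1 higher in RNA at day 4, and 3 lower and 2 higher at day 10. The chemokine Cxcl10 had 1.49, 3.76 and 1.80 CPM of RPFs in WT and 17.7, 12.6 and 7.58 in B at day 10, a log2 change of 2.41 (SE 0.39, adjusted p = 0.0038).

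Cell-type markers moved with some of these changes, and their part in the results was not tested. For the counts of markers that follow, 23.7% of all genes fell in RPFs in BM at day 4. At day 10, 13.4% rose and 12.0% fell in B, 10.9% and 8.41% in M, and 24.5% and 22.3% in BM. Of 10 Kupffer cell markers, RPFs fell for 9 in BM at day 4 (median -0.81), with a summed RNA level of 148 to 189 TPM against 216 to 276 in WT. At day 10 the sum was 343 to 408 in B and 506 to 595 in BM against 265 to 374 in WT, with 1 of the 10 higher in B, near the share over all genes, and 4 in BM. Of 7 hepatocyte markers, 7 fell in BM at day 4 (36301 to 43253 TPM against 48526 to 55186) and 4 in B at day 10 (30451 to 35448 against 66642 to 79745). Their sum at day 10 was also below every WT mouse in M (35189 to 40935 TPM) and BM (33749 to 36997). Stellate cell markers summed to 144 to 207 TPM in B, 177 to 260 in M and 198 to 249 in BM against 220 to 312 in WT at day 10, with RPFs of 3 of 6 markers lower in B, 1 in M and 3 in BM and 1 higher in BM. Of 6 endothelial markers, 4 fell in RPFs in BM at day 4. At day 10 B livers had 3 of the 6 lower, M livers 4 and BM livers 3, with 1 higher in BM. Neutrophil and monocyte markers summed to 21.1 to 64.2 TPM in B and 8.14 to 22.3 in WT at day 10, S100a9 rising in B, and to 5.12 to 11.6 in the B, M and BM mice of day 4 against 17.6 to 30.7 in WT. Markers of plasmacytoid dendritic cells summed at day 4 to 7.23 to 9.99 TPM in WT, 8.42 to 11.7 in B, 12.1 to 14.4 in M and 13.6 to 16.5 in BM, with M and BM above every WT mouse, and at day 10 to 9.25 to 13.8 in WT, 13.7 to 18.5 in B, 9.98 to 17.4 in M and 11.3 to 18.4 in BM. No RPF of this list passed against WT but that of Irf8, higher in BM at day 10. T and NK cell markers summed to 5.15 to 16.3 TPM over the day 4 mice, and at day 10 to 8.07 to 14.0 in WT, 10.5 to 21.7 in B, 6.09 to 11.7 in M and 10.3 to 15.7 in BM. RPFs of Cd4 and Ptprc fell in BM at day 4, and in BM at day 10 those of Gzmb and Cd3e rose and that of Cd4 fell. B-cell markers were at or below 2.5 TPM in every mouse.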

How the data were processed

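Ribosome profiling and cytoplasmic RNA sequencing were done on the same 24 livers, 3 per genotype and day, grouped by the labels. For RPFs the authors deposited counts per coding sequence on the most abundant transcript of each gene, after adaptor trimming, removal of rRNA and tRNA reads, alignment with BBmap and removal of duplicates by molecular identifiers. For RNA the authors deposited expected counts and TPM per transcript from RSEM after alignment with Bowtie2 to GENCODE vM27 (GRCm39). The submitters' processing notes list Bowtie2 2.3.5.1, RSEM 1.3.3, cutadapt 1.18, SAMtools 1.9 and R 4.3.1, among others.

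Expected counts were summed per gene and rounded to whole numbers, which 99.92% or more of the nonzero values in every library already were. RPF transcripts without a line in a library, 1689 to 3019 per library, were taken as a count of 0. Symbols and gene positions came from GENCODE vM39, which matched 20614 of 20622 genes, and promoters from RefSeq. Genes were kept with filterByExpr (count minimum 10, total 15), scaled by TMM and tested with edgeR 4.0.16 (quasi-likelihood test, R 4.3.3, limma 3.58.1) in fits of the compared groups only, with Benjamini-Hochberg adjustment over all genes and a threshold of 0.1. TE was the interaction of group and library type. CPM used all 24 mice of a library type. Nothing in the labels states that mice of a group were processed on separate days, so p-values measure the spread between mice as handled.

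Alternatives were DESeq2 1.42.0, its size factors in edgeR, all 24 mice in 1 fit, no filter on low counts, genes listed in every library, each mouse left out, a block by replicate number and, for TE, a block by mouse. Scaling by library totals, the B and M day differences and the comparison with the sum of B and M were added after values were seen. The replicate numbers did not pair mice across genotypes, while the RPF and RNA library of a number came from the same liver, with correlations of deviations from 0.156 to 0.605. The 40 genes, their roles, the other lists and the tests were chosen with earlier results of these data known.

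Values of every mouse were given for the members with the 5 smallest adjusted p in RPFs or RNA in each direction of a comparison with WT or of BM with B, for those called in TE and for the member of each role with the highest mean TPM, with some left to ranges. Reads of Ifit3 and Ifit3b, and of the Gbp, Oas and Irg families, may be split between near-identical copies. A gene of the pathway lists is not reported here.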

Additional observations from a re-analysis of the deposited data

Results flagged for a closer look

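The effects of a genotype against same-day WT differed between day 10 and day 4 by a direct test of the difference in edgeR. For BM the effect was higher at day 10 for 27 of 40 genes in RPFs and 18 of 39 in RNA, where 16.9% and 12.9% of all genes were. For B it was higher for 38 of 40 in RPFs and 35 of 39 in RNA, where 8.44% and 4.52% of all genes were. For M it was higher for 3 of 40 in RPFs and 1 of 39 in RNA, where 0.642% and 0.458% of all genes were, and these counts ranged from 0 to 5 and from 0 to 4 as each mouse was left out. The medians were 1.10 and 0.84 for BM, 1.94 and 1.82 for B, and 0.52 and 0.36 for M on the log2 scale, in RPFs and RNA.

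The BM effect was also tested against what B and M gave when added. At day 4, 2 of 40 genes were higher and 2 lower in RPFs, where 8.19% and 11.7% of all genes were, and 2 of 39 were higher and 2 lower in RNA, where 5.56% and 7.06% were. These counts were no larger than the shares over all genes. At day 10, 19 of 40 were lower in RPFs and 16 of 40 lower in RNA, where 7.88% and 4.57% of all genes were. The day 10 counts ranged from 2 to 34 and from 2 to 33 as each mouse was left out, with the highest without BM mouse 1. With 3 mice per group, no test for single stray mice was made.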

How the results depend on the processing

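Median changes over the 40 genes in RPFs and RNA kept their sign under every setting for B, M and BM against WT at day 4, BM against B on both days, B at day 10 and the B, M and BM effects between days. In M at day 10 the RPF median went from -0.19 to 0.05 with library totals, and in BM at day 10 the medians went from 0.19 to -0.08 (RPFs) and from 0.06 to -0.48 (RNA) without BM mouse 1. With all 24 mice in 1 fit, B at day 4 had 5 calls in RPFs and 1 in RNA, M at day 4 18 and 7, BM against B at day 4 11 in RNA, BM against M at day 4 9 and 8, M at day 10 4 in RPFs and BM against M at day 10 16 in RNA. With library totals, B at day 4 had 10 in RPFs, BM at day 4 2 in TE, BM against B at day 4 14 and 12, BM against M at day 4 13 in RNA, M at day 10 5 in RPFs, WT between days 4 and 4, and the M effect between days 0 in RNA. Without a filter on low counts, RNA calls were 14 in B at day 4, 15 in M at day 10, 1 in WT and 6 in the M effect between days, and 9 and 26 against the sum of B and M at days 4 and 10. DESeq2 gave 2 for WT RNA and 5 (RPFs) and 3 (RNA) for the M effect, and its size factors in edgeR gave 2 for the latter in RNA.

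A block by replicate number gave 4 calls in M at day 10 in RPFs, 0 in the M effect in RNA and 7 against the sum at day 4 in RNA. A block by mouse gave TE calls of 1 in M, 2 in BM and 2 in BM against B at day 4 and 1 in B at day 10. No other call count moved by more than 1.5 times under either block.

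The sign turned with library totals for 10 calls. In M at day 4 RNA, Ifih1 went from -0.25 to 0.094 and Dtx3l from -0.27 to 0.079. In BM at day 4 RPFs, Dtx3l went to 0.067, Bst2 to 0.12, Irf1 to 0.11 and Ifi27 to 0.16, and in RNA Bst2 to 0.23, Gbp7 to 0.079 and Irf1 to 0.052. In BM against B at day 4 RPFs, Herc6 went to 0.0021. The all-gene median moves with this scaling.

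Leaving out each mouse gave ranges, RPFs then RNA, of 8 to 17 and 4 to 8 calls in B, 27 to 32 and 16 to 21 in M and 34 to 37 and 30 to 32 in BM at day 4, and of 18 to 34 and 17 to 27 in BM against B and 14 to 23 and 11 to 24 in BM against M at day 4. At day 10 they were 32 to 38 and 29 to 38 in B, 4 to 16 and 4 to 13 in M, 12 to 23 and 13 to 25 in BM, 26 to 36 and 21 to 39 in BM against B and 4 to 18 and 6 to 21 in BM against M. Between days they were 1 to 5 and 0 to 1 in WT, 24 to 31 and 18 to 24 for BM, 36 to 39 and 32 to 37 for B, and 0 to 5 and 0 to 4 for M. Against the sum they were 3 to 9 and 3 to 8 at day 4 and 2 to 34 and 2 to 33 at day 10. TE calls ranged from 1 to 2 in BM and 0 to 1 in BM against B at day 4, and from 0 to 1 in B, 0 to 11 in BM and 0 to 1 in BM against B at day 10. The causes were not tested. A fit with fewer mice has less power, and some of these counts fell while others rose. RPF levels under 10 CPM and RNA levels under 5 CPM, as for Oas1a or Isg15 RNA, rest on few counts.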
